A study of Mus musculus with 16 samples.

Results

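The 9 genes examined were Xcr1, Clec9a, Batf3, Naaa, Wdfy4, Flt3, Zbtb46, Itgae and Gcsam, a list of genes that mark type 1 conventional dendritic cells (DC1) or the dendritic cell lineage. They were taken by name, with earlier results of these data known, and all 9 were found among the 31053 genes of the count matrices. Their unique molecular identifiers (UMIs, each 1 captured transcript) were followed in CD45+ cells of irradiated and untreated mouse tumors across cell classes. The name of the list held only in part. Within these tumors Gcsam was largely restricted to DC1-like cells by its UMI share. Xcr1 and Clec9a transcripts were also carried by macrophage-like cells, mainly those of 1 tumor model. Batf3 and Wdfy4 transcripts were carried by macrophage-like cells of both models, at higher levels in 1 of them. Of Itgae UMIs CD8 T cell-like cells held 35.7% and regulatory T cell-like cells 24.6%. Of Naaa UMIs macrophage-like cells held 39.1% and monocyte-like cells 25.1%.

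The tumors were MC38, a colorectal carcinoma line, and Panc02-SIY, a pancreatic adenocarcinoma line carrying the model antigen SIY, both grown under the skin of the right flank of C57BL/6J mice. In each model 4 libraries came from untreated tumors and 4 from tumors given a single dose of 12 Gy and taken 24 h later, so that 16 libraries fell into 4 groups. All cells were enriched on CD45 beads and sorted as live CD45+ leukocytes before droplet single-cell RNA sequencing. The series' design text gives as many animals a group as there are libraries and the methods give fewer, and no source used here says which animal gave which library. Libraries of a group may therefore share an animal, and p-values measure the spread between libraries, which may be technical in part.

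The MC38 libraries shared most of their cell barcodes: of 2632 distinct barcode sequences 769 stood in all 8 libraries, against 60 of 18136 for Panc02-SIY. Each barcode was therefore kept only in the library of its tumor where it had the most UMIs, which left 20768 of 28678 barcodes, 147 to 609 in an MC38 library and 1113 to 4452 in a Panc02-SIY library. Libraries held between 1385711 and 43708746 kept UMIs. Because every MC38 library differed from every Panc02-SIY library in this respect, the tumor and anything done separately for each tumor cannot be told apart in comparisons between models.

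DC1 take up material from dying cells and present it on MHC class I to CD8 T cells, which makes them central to T cell responses against tumors. Flt3 is the receptor for the growth factor Flt3l that dendritic cells need to develop, Zbtb46 is a transcription factor of the conventional dendritic cell lineage, and Batf3 is the AP-1 family factor that, with Irf8, maintains the DC1 branch. Xcr1 is the receptor for the chemokine Xcl1 made by CD8 T and NK cells, Clec9a binds actin exposed on dead cells, and Wdfy4 is needed for cross-presentation of cell-associated antigen. Itgae (CD103) is an integrin chain that pairs with Itgb7 and binds E-cadherin (Cdh1), Naaa is a lysosomal hydrolase of fatty acid amides, and Gcsam is a signaling adaptor first known from germinal center B cells.

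On the GRCm38 build Xcr1 (ENSMUSG00000060509) lies at chr9:123852315-123862029 on the minus strand and Clec9a (ENSMUSG00000046080) at chr6:129408862-129424763 on the plus strand, where it overlaps the annotated gene Clec1b on the same strand. Reads from the stretch that Clec9a and Clec1b share cannot be told apart by position. Flt3 (ENSMUSG00000042817) lies at chr5:147330741-147400489 on the minus strand, Zbtb46 (ENSMUSG00000027583) at chr2:181387762-181459426 on the minus strand, and Batf3 (ENSMUSG00000026630) at chr1:191097847-191108945 on the plus strand. Naaa (ENSMUSG00000029413) lies at chr5:92257659-92278170 on the minus strand, Wdfy4 (ENSMUSG00000051506) at chr14:32959547-33185508 on the minus strand, Itgae (ENSMUSG00000005947) at chr11:73090583-73147446 on the plus strand and Gcsam (ENSMUSG00000022659) at chr16:45610380-45622867 on the plus strand. All are annotated as protein coding.

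The 250 bases before the start site are shown for 4 of the genes, as given by RefSeq for GRCm38.p6, because the first pair was found in both DC1-like and Panc02-SIY macrophage-like cells and the second pair in dendritic cells and hardly in macrophage-like cells. The windows are chr9:123862030-123862279 (minus strand, 38.8% GC) for Xcr1, chr6:129408612-129408861 (plus strand, 35.6% GC) for Clec9a, chr5:147400490-147400739 (minus strand, 59.2% GC) for Flt3 and chr2:181424389-181424638 (minus strand, 51.6% GC) for Zbtb46. The Zbtb46 window lies inside the annotated gene but outside its exons, away from the annotated 5′ end of the gene at chr2:181459426. Whether this window acts as a promoter was not tested. Each is written 5′ to 3′ along the gene, and capitals mark a motif match.
Xcr1: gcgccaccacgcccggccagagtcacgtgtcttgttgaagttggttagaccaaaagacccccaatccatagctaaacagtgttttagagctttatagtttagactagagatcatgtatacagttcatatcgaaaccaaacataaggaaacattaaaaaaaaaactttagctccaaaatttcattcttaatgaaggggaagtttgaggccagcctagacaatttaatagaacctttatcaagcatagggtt
Clec9a: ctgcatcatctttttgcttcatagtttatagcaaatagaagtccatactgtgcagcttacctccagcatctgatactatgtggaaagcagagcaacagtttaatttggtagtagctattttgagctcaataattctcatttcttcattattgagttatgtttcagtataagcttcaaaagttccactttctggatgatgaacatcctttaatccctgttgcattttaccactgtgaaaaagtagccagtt
Flt3: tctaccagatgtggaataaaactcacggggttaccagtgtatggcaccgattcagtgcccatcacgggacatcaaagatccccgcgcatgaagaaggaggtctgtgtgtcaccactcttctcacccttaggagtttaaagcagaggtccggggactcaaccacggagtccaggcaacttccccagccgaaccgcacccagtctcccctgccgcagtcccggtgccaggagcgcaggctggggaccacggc
Zbtb46: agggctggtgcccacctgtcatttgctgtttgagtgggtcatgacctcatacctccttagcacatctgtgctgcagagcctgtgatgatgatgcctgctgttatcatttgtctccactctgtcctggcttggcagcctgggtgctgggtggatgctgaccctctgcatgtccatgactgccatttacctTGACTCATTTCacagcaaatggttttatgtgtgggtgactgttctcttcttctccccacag
Of 8 members with a promoter entry (Itgae was the exception), Zbtb46 alone held an AP-1 letter pattern TGANTCA. It lay in the window inside the gene, at 61 to 55 bases before the start given by RefSeq. The same stretch, extended to 51 bases before the start, matched the AP-1 and IRF composite pattern AICE2, in which GAAA stands directly beside TGANTCA. Both strands were searched, and 6.75% of 32817 promoters of this length held TGANTCA and 0.101% held AICE2. The further patterns of AP-1 or ETS factors with IRF, AICE1 (0.0975% of promoters) and EICE (2.30%), and of IRF alone, ISRE (2.97%), were in none of the 8 windows. Not every window lay before its annotated gene. The Batf3 and Wdfy4 windows also lay inside the gene, and own exons covered 163 bases of the Batf3 and 60 of the Gcsam window. A match is a description of letters and not of a bound site.

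Cells were clustered without the 9 genes, so that a gene's level in a class was not what made the class, and classes were named from other marker genes. Of 28 clusters 2 were conventional dendritic cell-like (cDC-like, 531 barcodes), and these were divided into DC1-like (128), mregDC-like (120, mature dendritic cells marked by Ccr7 and Fscn1), DC2-like (48), pDC-like (25) and other cDC-like barcodes (210). The other cDC-like barcodes were 3 unnamed subclusters, and the name cDC-like held for them only in part. Subcluster 0 (113 barcodes) was led by Cxcl10 and Cd209a with 7 DC2 and 7 monocyte markers raised, subcluster 3 (72 barcodes) by AA467197 and Ccl17 with 10 macrophage and 8 DC2 markers raised, and subcluster 6 (25 barcodes) by the T and NK cell genes Nkg7, Gzmb and Cd3g. The pDC-like barcodes are plasmacytoid and not conventional dendritic cells. The DC2-like barcodes had 6 monocyte and 4 macrophage markers raised beside 8 DC2 markers. Of the mregDC-like barcodes 25 formed a shallow subcluster (median 1398 UMIs) with 11 mregDC and 9 macrophage markers raised. The other 95 had 11 and 3 raised. The models filled different subclusters: subcluster 3 held 69 of the 113 MC38 cDC-like barcodes and 3 of the 418 from Panc02-SIY, whereas subcluster 0 held 2 and 111. In DC1-like barcodes 12 of 12 DC1 markers stood above their level over all barcodes, with a summed 6391 against 1065 UMIs per 1000000 (CPM), and 0 of 12 macrophage markers did, with 384 against 9886 CPM. These markers, none of them a member, also named the class, so the counts are a description. DC1-like subclusters were led by Xcr1, Cadm1 and Ppt1 in one (80 barcodes) and by Rab7b, Naaa and Ifi205 in the other (48 barcodes).

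By pooled level Xcr1, Clec9a, Naaa, Wdfy4 and Gcsam were highest in DC1-like cells, Batf3, Flt3 and Zbtb46 in mregDC-like cells and Itgae in regulatory T cell-like cells. Levels are compared only within a gene, because counting near transcript ends does not put different genes on one scale. Since the classes were made from these cells, differences between classes are given as descriptions with no test.

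Among the surface receptors, Xcr1 had a pooled level of 716 CPM in DC1-like barcodes, with 643 to 990 CPM in the 4 libraries that held at least 10 such barcodes. All of these libraries were Panc02-SIY, as were 118 of the 128 DC1-like barcodes. DC1-like levels and ranges over classes are therefore mostly those of that model. Among the named classes macrophage-like barcodes followed at 95.3 CPM, and mregDC-like barcodes at 11.2 CPM. Because macrophage-like cells were far more numerous, they held 69.4% of the 8480 Xcr1 UMIs and DC1-like cells 25.2%. Clec9a (1857 UMIs) was at 272 CPM in DC1-like barcodes (232 to 290 CPM per library), 154 CPM in pDC-like, 28.6 CPM in DC2-like and 12.1 CPM in macrophage-like barcodes. Macrophage-like cells again held a large share, 40.4% of Clec9a UMIs against 43.7% for DC1-like cells. Flt3 (1364 UMIs) spread over the dendritic cell classes instead: 245 CPM in mregDC-like (154 to 320.0 CPM over 6 libraries), 223 CPM in DC2-like and 195 CPM in DC1-like barcodes (163 to 245 CPM over 4 libraries), ranges that overlapped. In macrophage-like barcodes Flt3 was at 1.00 CPM.

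The transcription factors marked mregDC-like cells as highly as DC1-like cells. Batf3 (8171 UMIs) was at 265 CPM in mregDC-like (201 to 400 CPM) and 259 CPM in DC1-like barcodes (237 to 289 CPM), then at 126 CPM in DC2-like, 88.1 CPM in macrophage-like and 84.4 CPM in monocyte-like barcodes. Zbtb46 (810 UMIs) was at 96.2 CPM in mregDC-like (58.5 to 136 CPM) and 95.2 CPM in DC1-like barcodes (77.5 to 116 CPM). The ranges of both genes overlapped between these 2 classes, so their order is not resolved. Outside dendritic cells Zbtb46 was at 13.02 CPM in regulatory T cell-like and 0.534 CPM in macrophage-like barcodes.

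Naaa and Wdfy4 were far higher in DC1-like than in mregDC-like cells. Naaa (20653 UMIs) was at 1526 CPM in DC1-like barcodes (1459 to 1738 CPM per library) and 7.22 CPM in mregDC-like barcodes. Monocyte-like barcodes had 562 CPM of Naaa, other cDC-like 446 CPM and macrophage-like 131 CPM. Wdfy4 (8308 UMIs) was at 888 CPM in DC1-like barcodes (869 to 993 CPM), 212 CPM in other cDC-like, 158 CPM in B cell-like and 17.6 CPM in mregDC-like barcodes. Neutrophil-like (72.5 CPM), monocyte-like (58.7 CPM) and macrophage-like barcodes (56.4 CPM) had similar levels of Wdfy4. The DC1-like library ranges of Naaa and Wdfy4 thus lay above every pooled level of another class.

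Itgae was the one gene at its highest outside dendritic cells: of 3950 UMIs, regulatory T cell-like barcodes had a pooled level of 486 CPM and DC1-like barcodes 261 CPM (211 to 400 CPM). CD8 T cell-like barcodes, at 24.4 CPM, held the largest share of Itgae UMIs, 35.7%. Within dendritic cells Itgae was at 1.60 CPM in mregDC-like barcodes, and no Itgae UMI was found in DC2-like barcodes, which allows up to 8.13 CPM (exact Poisson limit, counting error only). Itgae also divided the DC1-like subclusters, at 331 CPM in the first and 60.3 CPM in the second, as did Xcr1, at 847 and 332 CPM. Gcsam (377 UMIs) was the most restricted gene, with 78.0% of its UMIs in DC1-like barcodes at 98.5 CPM (72.4 to 122 CPM). Mast cell or basophil-like barcodes followed for Gcsam with 31.9 CPM and 8.75% of its UMIs.

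**Figure D1:**
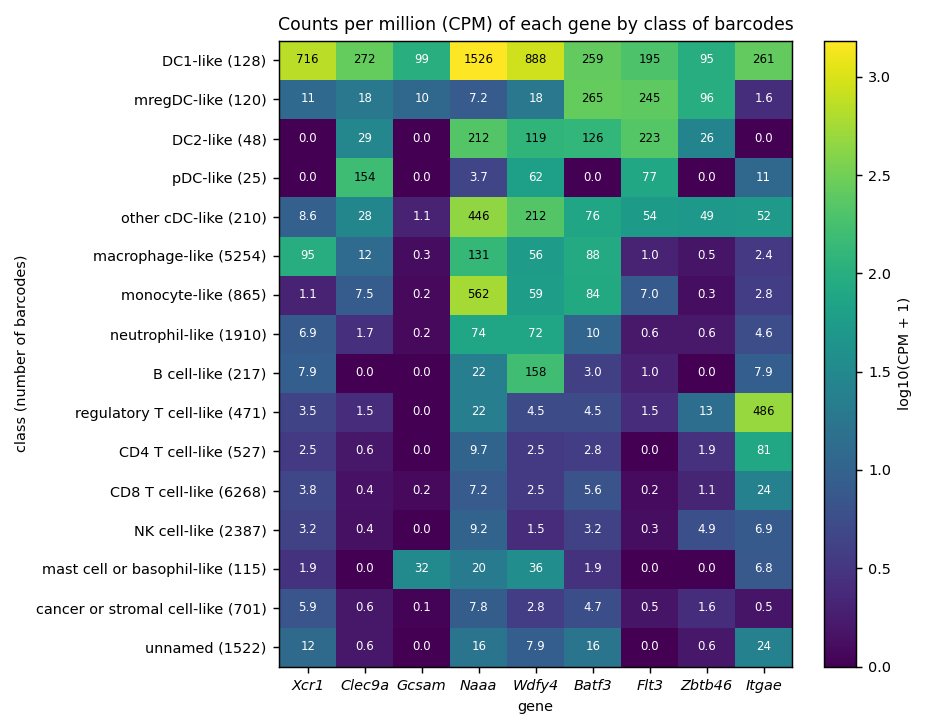
Pooled level of each gene (columns) in each cell class (rows), with the CPM printed in the cell and color on a log10(CPM + 1) scale. The DC1-like row is high for every gene, with Xcr1 at 716 CPM. The macrophage-like row is at 95.3 CPM for Xcr1, 88.1 CPM for Batf3, 131 CPM for Naaa and 56.4 CPM for Wdfy4. It is near 0 for Flt3, Zbtb46 and Gcsam.

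**Figure D2:**
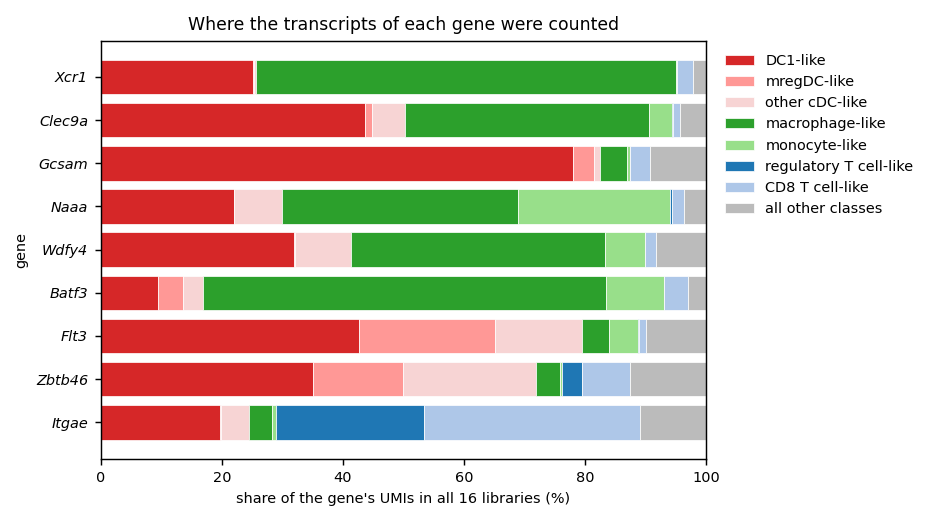
Share of each gene's UMIs (horizontal axis, percent) found in each cell class, 1 stacked bar a gene. DC1-like barcodes hold 78.0% of Gcsam UMIs and 25.2% of Xcr1 UMIs, while macrophage-like barcodes hold 69.4% of Xcr1 UMIs.

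The macrophage-like Xcr1 UMIs came from Panc02-SIY tumors. Pooled, Panc02-SIY macrophage-like barcodes (3593) had 212 CPM of Xcr1 and MC38 macrophage-like barcodes (1661) 1.26 CPM. In Panc02-SIY the 4 untreated libraries had 116, 192, 204 and 197 CPM and the 4 irradiated libraries 170.1, 196, 186 and 260.2 CPM. In MC38 they had 1.64, 1.05, 1.31 and 1.16 CPM untreated and 1.87, 1.19, 1.05 and 1.25 CPM irradiated. All 8 Panc02-SIY libraries lay above all 8 MC38 libraries. The 2 sets also differed in their markers. The 12 macrophage markers summed to 16767 CPM in Panc02-SIY, with 9 above their level over all barcodes, and to 32755 CPM in MC38, with 12 above it, while C1qa, a complement gene of tissue macrophages, had 3275 to 5120 CPM and 3398 to 4366 CPM. The 9 monocyte markers summed to 326 CPM in Panc02-SIY, with 0 above their level over all barcodes, and to 3743 CPM in MC38, with 8 above it. The 12 DC1 markers summed to 1948 CPM (5 above) and 930 CPM (4 above). No marker of these lists was at 0 in either set, and the part of these differences in the members' levels was not tested.

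The macrophage-like classes of both models were made of different clusters. Clusters 1, 6 and 22, led by C1q genes and Fcgr4, with Cadm1 among the leading genes of clusters 6 and 22, were nearly all from Panc02-SIY, with cluster 1 holding 60.7% of untreated and 45.2% of irradiated Panc02-SIY macrophage-like barcodes. Clusters 7, 10 and 21, with Apoe and Lyz2 among their leading genes and Arg1 among those of clusters 7 and 21, were mostly MC38, with cluster 7 holding 63.6% and 59.6%. Xcr1 in Panc02-SIY barcodes was at 163 CPM in cluster 1, whose barcodes were shallow with a median of 1052 UMIs. It was at 227 CPM in cluster 6 and 225 CPM in cluster 22, whose medians were 16617 and 24889.5 UMIs. Within cluster 10 Xcr1 was at 93.2 CPM in Panc02-SIY (exact Poisson 95% interval 69.4 to 123 CPM) and 3.04 CPM in MC38 (1.22 to 6.27 CPM), whereas within cluster 7 it was at 3.79 CPM (0.459 to 13.7 CPM) and 1.11 CPM (0.771 to 1.54 CPM). Xcr1 was thus high in the Panc02-SIY clusters at either depth and low in the 54 Panc02-SIY barcodes that fell into cluster 7.

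Xcr1-bearing macrophage-like cells seldom held Flt3, Zbtb46 or Gcsam transcripts. Of 1858 Panc02-SIY barcodes with an Xcr1 UMI, 1415 (76.2%) were macrophage-like and 102 (5.49%) DC1-like. Among the macrophage-like ones 97.5% carried C1qa and 86.5% Cadm1, an adhesion molecule also used as a DC1 marker, and 69.2% carried Batf3. Flt3 was in 1.06% of them, Zbtb46 in 0.353% and Gcsam in 0.495%, whereas Flt3 was in 93.1%, Zbtb46 in 83.3% and Gcsam in 85.3% of the DC1-like ones. Clec9a stood between, in 21.8% and 95.1%. Per library, Panc02-SIY macrophage-like barcodes had 0 to 1.92 Flt3 UMIs for every 100 Xcr1 UMIs and DC1-like barcodes 19.5 to 125, so the 2 genes were not in 1 ratio in both classes.

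Depth was checked in the same barcodes, and CD8 T cell-like barcodes were set beside them. Median UMIs were 2111 in Panc02-SIY and 18807 in MC38 macrophage-like barcodes. After thinning every barcode to 1000 UMIs, with shallower barcodes left out (1017 in Panc02-SIY and 104 in MC38), an Xcr1 UMI was in 14.8% of Panc02-SIY and 0.257% of MC38 macrophage-like barcodes (39.4% and 2.17% unthinned). Panc02-SIY CD8 T cell-like barcodes, a class that should lack Xcr1, had it in 0.327% (2.82% unthinned, median 7443 UMIs) and DC1-like barcodes in 38.3% (86.4% unthinned, median 21318 UMIs). For Flt3 the thinned shares in Panc02-SIY were 0.272% in macrophage-like and 17.4% in DC1-like barcodes. The Xcr1 share of macrophage-like barcodes stood above that in CD8 T cell-like barcodes, and the Flt3 share was low in both. No level of free RNA was estimated, and CD8 T cell-like barcodes were deeper before thinning, so the part of free RNA was not tested. Of Panc02-SIY barcodes with an Xcr1 UMI, 50% of the CD8 T cell-like ones also held C1qa and 15.8% of the macrophage-like ones Cd3e. Barcodes of mixed cells were not removed, and their part was not tested.

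**Figure D3:**
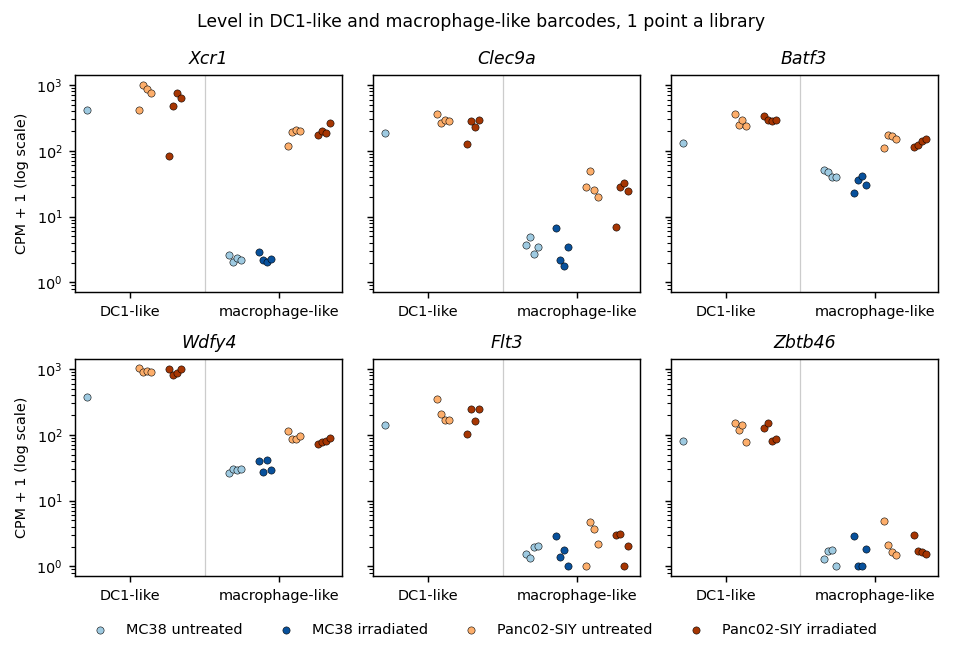
CPM + 1 on a log axis for Xcr1, Clec9a, Batf3, Wdfy4, Flt3 and Zbtb46, 1 point a library, in DC1-like barcodes (libraries with at least 3) and macrophage-like barcodes of each model. Panc02-SIY macrophage-like libraries lie at 116 to 260.2 CPM for Xcr1 against 1.05 to 1.87 CPM in MC38, and both lie near 0 for Flt3 and Zbtb46.

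Between the models, the 6 members that passed the filter on low counts in the macrophage-like class were all called. Flt3, Zbtb46 and Gcsam did not pass it. Xcr1 had at most 9 and Itgae at most 8 UMIs in an MC38 sum. Both passed only through Panc02-SIY. Clec9a, with 3 to 19 UMIs in MC38 sums, also needed the Panc02-SIY libraries to pass, so the count of 6 is partly set by the filter. These comparisons were added after levels had been seen, so their p-values describe the difference and are no independent test. Calls required an adjusted p under 0.1 together with a fold change over 1.3 in edgeR's quasi-likelihood test on UMI sums per library, and 48.8% of all genes tested were called between untreated models and 51.2% between irradiated models, so a call alone says little about these genes. Xcr1 was lower in MC38 by a log2 fold change of -7.01 (SE 0.21, adjusted p = 1.046e-16) untreated and -7.12 (SE 0.22, adjusted p = 3.791e-16) irradiated. Clec9a had 27.1, 47.9, 24.7 and 19.1 CPM in untreated and 6.00, 27.0, 31.0 and 23.4 CPM in irradiated Panc02-SIY libraries, against 0.789 to 5.61 CPM in MC38, which did not overlap. Its log2 fold changes were -3.40 (SE 0.39) and -3.29 (SE 0.45). Batf3 had 108 to 174 CPM against 21.5 to 50.1 CPM, with log2 fold changes of -1.73 (SE 0.14) and -1.80 (SE 0.15), and Wdfy4 had 72.1 to 112 CPM against 24.9 to 40.5 CPM, with -1.60 (SE 0.13) and -1.07 (SE 0.13). Both genes again left a gap between the models.

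Itgae was low in macrophage-like cells of both models, at 2.28 to 12.0 CPM in Panc02-SIY and 0 to 1.87 CPM in MC38, and was lower in MC38 by -2.80 (SE 0.66, adjusted p = 0.001608) untreated and -1.92 (SE 0.77, adjusted p = 0.04308) irradiated on the log2 scale. The irradiated call was lost without Panc02-SIY irradiated replicate 3 (log2 fold change -1.33, adjusted p = 0.1811). It was kept in 13 of the 14 settings that left no library out (adjusted p up to 0.1252). Markers of CD8 T cells summed to 100.4 to 523 CPM in Panc02-SIY macrophage-like sums against 12.9 to 66.8 CPM in MC38, and their part in the Itgae result was not tested. Naaa alone went the other way: it had 132, 103, 96.1 and 52.6 CPM in untreated and 154, 116, 144 and 76.9 CPM in irradiated Panc02-SIY libraries, against 124 to 239.7 CPM in MC38, which overlapped. It was higher in MC38 by 1.17 (SE 0.28, adjusted p = 0.003385) and 0.81 (SE 0.27, adjusted p = 0.02395) on the log2 scale. The second value fell to 0.55 (adjusted p = 0.1205) without Panc02-SIY irradiated replicate 4.

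Irradiation gave no call among the 6 in macrophage-like cells of either model, against 14.2% of all genes called in MC38 and 8.94% in Panc02-SIY. In Panc02-SIY the estimates ran from -0.70 (Itgae, SE 0.62) to 0.45 (Naaa, SE 0.29), and Xcr1 had 0.18 (SE 0.13, adjusted p = 0.4857). In MC38 the nearest to a call was Wdfy4, at 0.36 (SE 0.13, adjusted p = 0.08993), which was under the fold limit. Without MC38 irradiated replicate 2 or without replicate 4 Wdfy4 was called, which made 1 member. The difference between the models in the effect of radiation was called for none of the 6, with 0.0482% of genes called.

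Over all CD45+ cells irradiation gave a call for 1 of the 9 genes in Panc02-SIY and for none in MC38. These shares were no larger than those over all genes, 14.7% and 11.7%. Here a sum mixes cell number and RNA per cell, so that fewer cells of a type and less RNA per cell cannot be told apart. The CD45+ barcodes also included cancer or stromal cell-like ones. These were on average 10.1% of untreated and 5.96% of irradiated MC38 barcodes, and 2.87% and 2.01% of those of Panc02-SIY. Their part in the sums was not tested. In Panc02-SIY Naaa had 61.8, 82.0, 74.4 and 59.5 CPM untreated and 195, 92.1, 216 and 145 CPM irradiated, without overlap, and rose by a log2 fold change of 1.14 (SE 0.24, adjusted p = 0.006755), where 14.7% of genes were called. In MC38, where 11.7% of genes were called, none of the 9 was, and Naaa had 185, 244, 119.6 and 149.8 CPM untreated and 126, 175, 192 and 168 CPM irradiated. The difference between models in this response was not called (log2 difference -1.09, adjusted p = 0.2174, with 0.345% of genes called).

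Several classes that carry Naaa were a larger share of irradiated than of untreated Panc02-SIY barcodes, and their part in the rise of Naaa was not tested. On average other cDC-like cells went from 0.379% to 1.17% and neutrophil-like cells from 8.39% to 14.2%. Macrophage-like cells went the other way, from 19.7% to 14.4%. Monocyte-like cells were 2.51% ± 1.58 (SD, n = 4) of untreated and 7.13% ± 1.41 (SD, n = 4) of irradiated Panc02-SIY barcodes, and their part of the Naaa level was 14.1 CPM and 84.9 CPM on average. Within monocyte-like barcodes Naaa had 480.1, 395, 416 and 269.5 CPM untreated and 793, 422, 702 and 654 CPM irradiated, a log2 fold change of 0.69 (SE 0.18, adjusted p = 0.1653) that was not called, beside 0.332% of genes called. DC1-like cells gave 32.1 CPM of the untreated and 24.5 CPM of the irradiated Naaa level. In MC38 macrophage-like cells gave most of it, 155 CPM untreated and 144 CPM irradiated.

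In the other classes that carry members, tests of irradiation in Panc02-SIY gave no call. Itgae in regulatory T cell-like barcodes had 692, 565, 590 and 301 CPM untreated and 571, 677, 357 and 458 CPM irradiated, which overlapped (-0.16, SE 0.21, adjusted p = 0.9229, 0.35% of genes called). In CD8 T cell-like barcodes, where 5.53% of genes were called, Itgae had a log2 fold change of 0.34 (SE 0.99) and in CD4 T cell-like barcodes, with 0.557% called, 0.02 (SE 0.77). Naaa in neutrophil-like barcodes had 1.28 (SE 0.45, adjusted p = 0.4065, 0.0561% of genes called), and Wdfy4 in B cell-like barcodes -0.09 (SE 0.36, 0% of genes called). Between untreated models none of the 5 members tested in CD8 T cell-like barcodes was called, beside 9.02% of genes.

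Between untreated models 5 of the 9 genes differed over all CD45+ cells, in a comparison where 61.1% of genes did. Xcr1 had 6.399, 8.47, 8.15 and 1.53 CPM in MC38 and 11.2, 61.8, 45.2 and 75.9 CPM in Panc02-SIY, with no overlap and a log2 fold change of -2.91 (SE 0.65, adjusted p = 0.001426). Macrophage-like cells gave 29.4 CPM and DC1-like cells 15.9 CPM of the Panc02-SIY mean. Itgae was lower in MC38, at 3.88 to 12.7 CPM against 9.22 to 75.5 CPM (-1.93, SE 0.65, adjusted p = 0.01753), with overlap at Panc02-SIY replicate 4. Regulatory T cell-like cells gave 12.3 CPM of this Panc02-SIY Itgae mean and DC1-like cells 5.82 CPM. CD8 T cell-like cells, which held 35.7% of Itgae UMIs over all libraries, were 37.4% of untreated Panc02-SIY and 3.88% of untreated MC38 barcodes. Their part in the Itgae difference was not tested. Naaa was higher in MC38 by 1.52 (SE 0.25, adjusted p = 7.808e-05).

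The other 2 calls between untreated models rested on few UMIs. Clec9a had 5.26, 8.77, 5.21 and 3.29 CPM in MC38 and 7.54, 16.5, 9.99 and 12.7 CPM in Panc02-SIY, which overlapped (-0.94, SE 0.39, adjusted p = 0.04476). Gcsam had 4 and 6 UMIs in 2 MC38 libraries and none in the others, and 2.201 to 3.99 CPM in Panc02-SIY (-2.29, SE 0.91, adjusted p = 0.03702). Both were lost without MC38 untreated replicate 4, which left 3 calls (Itgae, Naaa and Xcr1). Clec9a was also lost without Panc02-SIY untreated replicate 2 (adjusted p = 0.1358) or with counts thinned to equal depth (adjusted p = 0.2256), and Gcsam without MC38 untreated replicate 3 (adjusted p = 0.1075). Gcsam passed the filter on low counts only through Panc02-SIY, so its place among the calls is partly set by that filter.

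Between irradiated models, where 58.5% of all genes were called, 4 of the 9 were, all lower in MC38. Xcr1 had 1.44, 1.74, 3.53 and 1.65 CPM in MC38 and 19.0, 31.0, 42.0 and 89.5 CPM in Panc02-SIY (-4.02, SE 0.80, adjusted p = 0.0006221), again with no overlap. Clec9a had 5.05, 1.74, 2.91 and 3.18 CPM against 3.79, 8.26, 13.6 and 15.3 CPM (-1.42, SE 0.44, adjusted p = 0.01132), which overlapped. Itgae had 3.13 to 8.66 CPM against 10.7 to 69.6 CPM (-2.13, SE 0.71, adjusted p = 0.01839) and did not overlap. Flt3 had 4.33, 2.09, 8.09 and 3.88 CPM against 7.39, 13.7, 11.04 and 9.69 CPM, a narrower difference (-0.78, SE 0.37, adjusted p = 0.07899) with 1 MC38 library inside the Panc02-SIY range. The Flt3 call was lost without MC38 irradiated replicate 1, 2 or 4 or Panc02-SIY irradiated replicate 2 (adjusted p from 0.1262 to 0.2094). It was kept in 12 of the 14 settings that left no library out (adjusted p up to 0.2037). Batf3, Wdfy4 and Zbtb46 were called in neither comparison, with Batf3 at 18.0 to 53.5 CPM in MC38 and 19.999 to 63.9 CPM in Panc02-SIY libraries.

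**Figure D4:**
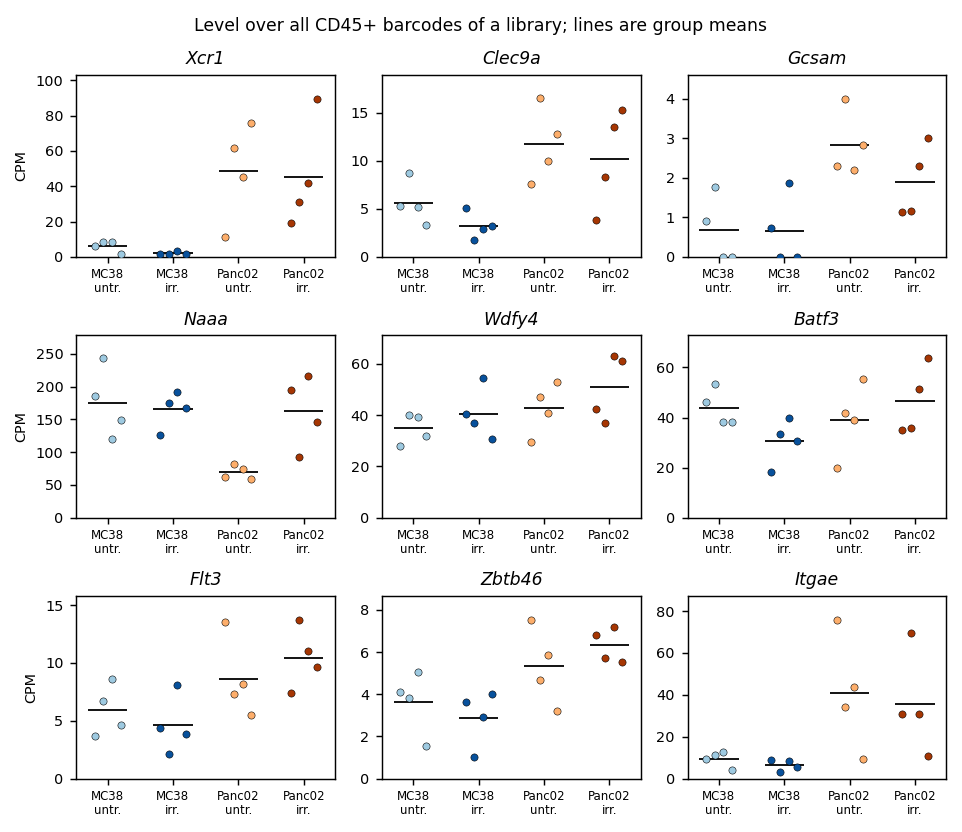
Level of each of the 9 genes over all CD45+ barcodes (vertical axis, CPM), 1 point a library and a line at each group mean. The irradiated Panc02-SIY Naaa libraries (92.1 to 216 CPM) lie above the untreated ones (59.5 to 82.0 CPM), and all Panc02-SIY Xcr1 libraries lie above all MC38 ones.

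Restricted to cDC-like cells, every called member was lower in MC38 than in Panc02-SIY, but no call was left once subcluster 3, which held most MC38 cDC-like barcodes, was taken out. MC38 libraries held 3 to 28 cDC-like barcodes and Panc02-SIY libraries 23 to 94. Between untreated models 3 of the 9 genes were called, beside 9.29% of all genes. Clec9a had 67.8, 129, 50.8 and 23.7 CPM in MC38 and 102, 222, 126 and 219 CPM in Panc02-SIY (-1.42, SE 0.39, adjusted p = 0.03394), with MC38 replicate 2 inside the Panc02-SIY range. Batf3 had 83.5, 184, 59.6 and 71.0 CPM against 193, 216, 214 and 204 CPM (-1.12, SE 0.33, adjusted p = 0.04879), and did not overlap. Wdfy4 had 156, 292, 196 and 152 CPM against 231, 749, 415 and 670.1 CPM (-1.37, SE 0.34, adjusted p = 0.02358), with MC38 replicate 2 inside the Panc02-SIY range. Without MC38 untreated replicate 3 Wdfy4 was the only call left (Clec9a adjusted p = 0.1108, Batf3 adjusted p = 0.1643), and Batf3 was also lost without replicate 1 or 4. Without MC38 untreated replicate 2, or without Panc02-SIY untreated replicate 1, 5 were called.

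Between irradiated models 4 genes were called in cDC-like cells, beside 11.5% of all genes. Clec9a had 16.1, 14.4, 27.5 and 19.4 CPM in MC38 and 50.5, 70.9, 88.0 and 136 CPM in Panc02-SIY (-1.90, SE 0.48, adjusted p = 0.01824), without overlap. Batf3 had 0, 36.1, 77.4 and 94.9 CPM against 198, 159.5, 188 and 201 CPM (-1.28, SE 0.34, adjusted p = 0.02337), also without overlap. Flt3 had 16.1, 36.1, 89.8 and 69.0 CPM against 120.5, 222, 109 and 158 CPM (-1.08, SE 0.32, adjusted p = 0.03789), and Zbtb46 had 48.2, 14.4, 32.4 and 49.6 CPM against 101, 73.8, 67.4 and 72.4 CPM (-0.85, SE 0.30, adjusted p = 0.08311). All 4 genes kept the groups apart. Without Panc02-SIY irradiated replicate 2, Flt3 and Zbtb46 were lost and 2 calls were left. The Flt3 call was kept in 16 of the 18 settings that left no library out (adjusted p up to 0.5991). The Zbtb46 call was also lost without MC38 irradiated replicate 2 or 3 or Panc02-SIY irradiated replicate 1 or 4 (adjusted p from 0.1341 to 0.1898). It was lost too with the replicate number as a block, the stricter cell filter, no filter on low counts or counts thinned to equal depth (adjusted p from 0.1045 to 0.127), and with a limit of 0.05 on the adjusted p.

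With subcluster 3 left out, an alternative chosen after seeing the data, 0 of the 9 genes were called between untreated models (1.06% of all genes called) and 0 between irradiated models (0.891%). Untreated MC38 libraries then held 4 to 11 barcodes, and of the irradiated ones only replicates 3 and 4, with 5 and 11, had enough to enter the fit. Clec9a had a log2 fold change of -0.21 (SE 0.40, adjusted p = 0.8647) untreated and -0.85 (SE 0.67, adjusted p = 0.6138) irradiated. Batf3 had -0.45 (SE 0.31, adjusted p = 0.5388) untreated and turned to 0.31 (SE 0.36, adjusted p = 0.7661) irradiated, and Flt3 turned to 0.54 (SE 0.41, adjusted p = 0.5991) irradiated. Wdfy4 kept most of its untreated estimate with a wider error (-1.17, SE 0.73, adjusted p = 0.5128), and Zbtb46 had -0.45 (SE 0.46, adjusted p = 0.7526) irradiated. The median over all genes was -0.28 in both comparisons.

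DC1-like cells were on average 14.0% of untreated and 11.1% of irradiated MC38 cDC-like barcodes, and 38.9% and 17.1% of those of Panc02-SIY. Two-sided exact permutation tests of these shares gave adjusted p = 0.286 between untreated and 0.686 between irradiated models. Macrophage markers summed to 960 to 2399 CPM in MC38 and 363 to 872 CPM in Panc02-SIY cDC-like sums. Irradiation itself gave no call among the 9 in cDC-like cells of MC38 or Panc02-SIY by edgeR (0.108% and 0.13% of genes called, 513 and 724 genes at an unadjusted p below 0.05), nor did the difference between models (0% of genes called, 421 at an unadjusted p below 0.05). Without the filter on low counts edgeR called 3 in MC38 (Clec9a, Itgae and Xcr1, beside 0.649% of all genes) and 4 in Panc02-SIY (Clec9a, Gcsam, Itgae and Xcr1, beside 2.13%). DESeq2 was run only with that filter and called none.

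**Figure D5:**
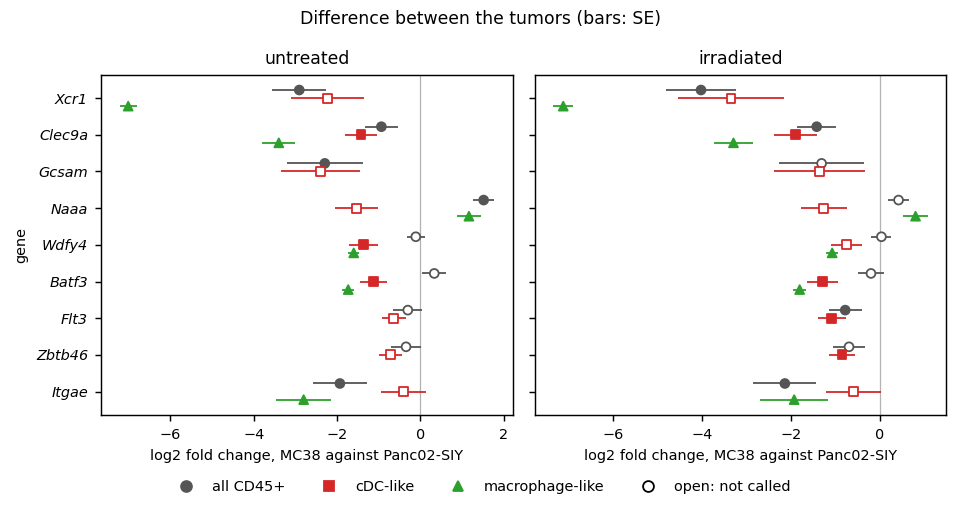
Log2 fold change of MC38 against Panc02-SIY (horizontal axis) for each gene, with its SE derived from the test's F statistic. Untreated and irradiated panels show all CD45+, cDC-like and macrophage-like barcodes, with filled symbols for called genes. Xcr1 in macrophage-like barcodes lies farthest to the left at -7.01 and -7.12, and Naaa lies to the right in macrophage-like and untreated CD45+ barcodes.

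Within DC1-like cells of Panc02-SIY no member differed with irradiation, beside 0.24% of 6675 genes called. The untreated libraries held 6, 18, 9 and 37 DC1-like barcodes and the irradiated libraries 3, 5, 15 and 25, so precision was low. Xcr1 had 419, 990, 864 and 749 CPM untreated and 82.9, 480, 742 and 643 CPM irradiated (log2 fold change -0.61, SE 0.49, adjusted p = 0.918), with overlap. Clec9a had 359.5, 268, 294 and 284 CPM and 124, 279, 232 and 290.3 CPM (-0.32, SE 0.25), and Batf3 had 359.5, 244, 294 and 237 CPM and 332, 288, 282 and 289 CPM (0.03, SE 0.23). Each gene's groups overlapped. Naaa had 2067, 1738, 1439 and 1516.85 CPM and 2011, 1117, 1459 and 1686 CPM (-0.19, SE 0.18), and Wdfy4 had 1019, 914, 935 and 885 CPM and 1016, 811, 869 and 993 CPM (-0.09, SE 0.18). Flt3, Zbtb46, Itgae and Gcsam had estimates from -0.54 (Itgae, SE 0.48) to -0.08 (Flt3, SE 0.28). MC38 held 10 DC1-like barcodes in all, in which Xcr1 was at 417 CPM (exact Poisson 95% interval 338 to 509.5 CPM), so no comparison of MC38 DC1-like cells was made.

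DC1-like cells were few in every group. They were 0.592% ± 0.357 (SD, n = 4) of untreated and 0.310% ± 0.361 (SD, n = 4) of irradiated MC38 barcodes, and 0.684% ± 0.166 (SD, n = 4) of untreated and 0.483% ± 0.267 (SD, n = 4) of irradiated Panc02-SIY barcodes. The spread between libraries covered these differences. Two-sided exact permutation tests gave adjusted p = 0.571 for irradiation in each model and 0.629 for the models in each condition, where 4 against 4 libraries allow a smallest unadjusted p of 0.0286. With all barcodes kept in every library, a setting that counts shared barcodes in several libraries, the exact permutation tests gave adjusted p = 0.0571 for both comparisons of models and 0.0762 for irradiation in Panc02-SIY.

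Other DC1 genes that were called in cDC-like cells were also lower in MC38 while subcluster 3 was included. Of 20 further DC1 genes 19 were tested there, and 0 rose and 7 fell in untreated MC38 against Panc02-SIY (median log2 fold change -1.25 against -0.05 over all genes), among them Cadm1 (-3.66, SE 0.88), Tlr11, a sensor of profilin (-2.85, SE 0.57), and Rab7b (-2.60, SE 0.72). Between irradiated models 0 rose and 5 fell (median -0.95 against -0.07), among them Irf8, the partner of Batf3, at -1.44 (SE 0.47). Irf8 had 402, 130.02, 559 and 457 CPM in irradiated MC38 and 1352, 1082, 909.9 and 1496 CPM in irradiated Panc02-SIY cDC-like barcodes, which did not overlap. Without subcluster 3 none of the 20, all then tested, was called between models. Their median log2 fold change was then -0.49 untreated and -1.08 irradiated, against -0.28 over all genes in both. Irf8 was at -0.09 (SE 0.38) untreated and 0.02 (SE 0.47) irradiated. Of the irradiated MC38 libraries only replicates 3 and 4 entered this fit. Irradiation gave no call in this list in cDC-like cells of either model, and without subcluster 3 Cd207, a lectin also called langerin, fell in Panc02-SIY (-4.02, SE 0.80, adjusted p = 0.04787). In Panc02-SIY DC1-like cells 2 of 20 fell with irradiation, Cd207 (-3.26, SE 0.72, adjusted p = 0.0633), and Tlr11 (-1.40, SE 0.34, adjusted p = 0.09833).

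Over all CD45+ cells 18 of these DC1 genes were tested, and those that rose with irradiation are also used outside DC1. Irradiation gave calls for 11.7% of all genes in MC38 and 14.7% in Panc02-SIY. In MC38 Ifi205 (1.08, SE 0.28), Id2 (0.69, SE 0.16) and Nfil3 (0.54, SE 0.12) rose and none fell, and in Panc02-SIY Ifi205 (1.82, SE 0.28), Cd24a (0.83, SE 0.28), Nfil3 (0.72, SE 0.12) and Irf8 (0.50, SE 0.11) rose and none fell. Irf8 had 376, 359.5, 416 and 334 CPM in untreated and 596, 487, 554 and 567 CPM in irradiated Panc02-SIY libraries, without overlap. Between models the calls went both ways, 5 higher and 7 lower in untreated MC38 and 5 and 6 in irradiated MC38. Of all genes 61.1% and 58.5% were called in these comparisons. In macrophage-like cells, where 48.8% of all genes were called between untreated and 51.2% between irradiated models, 13 of the DC1 genes were tested. In untreated MC38 3 were higher and 6 lower, and in irradiated MC38 4 were higher and 6 lower. Cadm1 led the lower ones at -4.29 (SE 0.33) and -4.93 (SE 0.36), at 14.0 to 40.0 CPM in MC38 and 250.2 to 727 CPM in Panc02-SIY libraries. With irradiation 4 of the 13 rose in MC38 macrophage-like cells (Id2, Rab7b, Cd24a and Nfil3) and 1 in Panc02-SIY (Id2). Of all genes 14.2% and 8.94% were called there.

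The ligands and partners of the members formed a list of 12. Flt3l, the ligand of Flt3, had 7.17 to 16.6 CPM over CD45+ cells of MC38 and 29.8 to 72.8 CPM in Panc02-SIY, without overlap, and was lower in MC38 by -2.09 (SE 0.26, adjusted p = 5.082e-06) untreated and -1.81 (SE 0.26, adjusted p = 2.9e-05) irradiated. Xcl1, the ligand of Xcr1, had 17.2 to 531 CPM in MC38 and 121 to 370.0 CPM in Panc02-SIY libraries and was called in no comparison of CD45+ cells. Its highest library was MC38 untreated replicate 1, while the other 7 MC38 libraries had at most 80.1 CPM. Itgb7, the partner of Itgae, had 57.1 to 93.0 CPM in MC38 and 68.2 to 183 CPM in Panc02-SIY and was lower in untreated MC38 (-0.68, SE 0.27, adjusted p = 0.03827). In cDC-like cells the order was the reverse, with Itgb7 higher in untreated MC38 (0.98, SE 0.23, adjusted p = 0.01002), a call lost without subcluster 3 (-0.03, SE 0.39, adjusted p = 0.9849).

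As counts over CD45+ cells, 3 of the 12 rose and 0 fell with irradiation in MC38 (Jund, Id2 and Junb), and 2 rose (Junb and Irf8) and 1 fell (Batf) in Panc02-SIY. In MC38 against Panc02-SIY 3 were higher (Jun, Junb and Cdh1) and 4 lower (Flt3l, Id2, Batf and Itgb7) untreated, and 3 higher and 2 lower irradiated. In cDC-like cells 4 of 10 tested were higher and 0 lower in untreated MC38, with Cdh1, which encodes E-cadherin, at 2.26 (SE 0.39), and 1 was higher (Junb) and 1 lower (Irf8) irradiated. Without subcluster 3 none was called untreated, with Cdh1 at -1.14 (SE 0.71), and Cdh1 alone was called irradiated, then lower in MC38 (-3.66, SE 0.97, adjusted p = 0.09064). Irradiation gave no call of this list in cDC-like cells, or in the DC1-like cells of Panc02-SIY, where 7 were tested, and without subcluster 3 Cdh1 rose in Panc02-SIY cDC-like cells (1.43, SE 0.33, adjusted p = 0.08941). In macrophage-like cells 4 of 11 rose with irradiation in MC38 and 2 in Panc02-SIY. Between models 4 were higher and 5 lower in untreated MC38, and 5 higher and 2 lower in irradiated MC38. Over CD45+ cells 11.7% (MC38) and 14.7% (Panc02-SIY) of all genes were called for irradiation, and 61.1% and 58.5% between untreated and irradiated models. In macrophage-like cells these shares were 14.2%, 8.94%, 48.8% and 51.2%, and in cDC-like cells 9.29% and 11.5% between models.

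Genes of the neighbouring dendritic cell types were examined in the same way, and those named were chosen after their values were seen. Of 12 DC2 genes 11 were tested in cDC-like cells, and 2 were higher in untreated MC38 (Sirpa, 0.96, and Ccl17, 5.97) and 1 in irradiated MC38 (Ccl17, 4.28), with none lower. Ccl17 is a leading gene of subcluster 3, and without that subcluster none was higher and Clec10a, a lectin, was lower (-3.16, SE 0.62, untreated and -4.80, SE 0.92, irradiated). Of 14 mregDC genes all were tested and none was called in any cDC-like comparison, with or without subcluster 3. Over all CD45+ cells irradiation gave 0 calls of DC2 genes in MC38 and 4 in Panc02-SIY, all higher (Itgam, Clec10a, Cd300a and Sirpa), and 0 and 1 of mregDC genes (Cd83). Between models 8 DC2 genes were higher and 2 lower in untreated and 7 and 2 in irradiated MC38, and 2 mregDC genes were higher and 4 lower in untreated and 2 and 3 in irradiated MC38. Many of these genes are shared with macrophages, which were 63.4% ± 4.97 (SD, n = 4) of untreated MC38 and 19.7% ± 9.28 (SD, n = 4) of untreated Panc02-SIY barcodes. The part of macrophages in these counts was not tested. Over CD45+ cells 61.1% of all genes were called between untreated and 58.5% between irradiated models. For irradiation 11.7% were called in MC38 and 14.7% in Panc02-SIY. In cDC-like cells the shares between models were 9.29% and 11.5%.

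The genes most like each member were found by Pearson correlation of log2(CPM + 20) over 136 sums of at least 10 barcodes of 1 class and 1 library (12 classes, 16 libraries, 10413 genes), with no test, since sums share libraries and depth. Xcr1 was closest to Clec9a (r = 0.852) and to Dnase1l3, a secreted nuclease (0.842). Clec9a was closest to Tspan33 (0.935) and Zfp366 (0.899), Batf3 to Tbc1d9 (0.922) and Grk3 (0.906), and Naaa to Plbd1 (0.853) and Tbc1d9 (0.842). Dnase1l3 was also near Batf3 (0.890). Flt3 was closest to the DC2 gene Cd209a (0.935) and Strip2 (0.919), Zbtb46 to Flt3 (0.849) and Strip2 (0.834), and Wdfy4 to March1 (0.835) and Rogdi (0.833). Itgae was closest to the regulatory T cell genes Tnfrsf4 (0.771) and Il2ra (0.741), and Gcsam to A530099J19Rik (0.796) and Mycl (0.785).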

How the data were processed

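Droplet single-cell RNA libraries of sorted CD45+ tumor cells were read as count matrices (UMI counts per gene and barcode) that the authors made with Cell Ranger 3.1.0 after bcl2fastq 2.20.0 on mm10, per the labels, and deposited with no further normalization. The members and gene lists were chosen with earlier results of these data known, and the macrophage-like comparisons were added after levels had been seen. A barcode found in several libraries of a tumor was assigned to the one where its UMI count was highest, since MC38 libraries shared a median of 964.5 barcodes per pair (83.3% of the smaller library). Barcodes were clustered in scanpy 1.11.5 (2000 variable genes without the 9 members, 30 principal components, 20 neighbors, leidenalg 0.10.2 at resolution 1) and named from fixed marker lists of which at least 3 had to be raised. Scrublet marked 0.342% of barcodes, too few to have worked, so no doublet was removed. CPM is UMIs per 1000000 UMIs of the same barcodes. Median UMIs per kept barcode were 2991 to 11097 per library, and count intervals cover counting error only.

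UMI counts were summed per library over all CD45+, cDC-like, DC1-like (libraries with at least 3 such barcodes) and macrophage-like barcodes and fitted with edgeR 4.0.16 in R 4.3.3 (quasi-likelihood test, TMM, all 4 groups in 1 fit). The filter on low counts used a minimum count of 10, or 3 for cDC-like and DC1-like sums with a minimum total of 15. P-values were adjusted by Benjamini and Hochberg over all genes tested, namely 12447, 9218, 6675 and 10371 genes. The edgeR test gives no standard error, so SE is the absolute log2 fold change divided by the square root of the F statistic. Calls required an adjusted p under 0.1 together with a fold change over 1.3, the limits in the study's methods. DC1-like shares were compared by exact permutation tests in scipy 1.17.1. Named were the 9 members, called genes and Irf8, Xcl1, Flt3l and Itgb7 of the lists of other DC1 genes and of ligands and partners, and the 2 genes most correlated with each member. Alternatives covered barcodes, cells, doublets, clustering, scaling, filter, depth, thresholds, DESeq2 1.42.0, the replicate number as a block, and each library left out.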

Additional observations from a re-analysis of the deposited data

Results flagged for a closer look

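In 6 of 139 groups of 4 libraries the highest or lowest value stood apart from the other 3 by Dixon's test at 95%, about the 1 in 20 that chance gives. Over CD45+ cells the highest irradiated MC38 library had 3.53 CPM of Xcr1 (replicate 3), with the next at 1.74 CPM. In untreated Panc02-SIY macrophage-like cells the lowest library had 116 CPM of Xcr1 (replicate 1, 30 UMIs in 135 barcodes), with the next at 192 CPM. In the same library Gcsam was highest at 19.4 CPM (5 UMIs), with the next at 1.84 CPM. In irradiated Panc02-SIY macrophage-like cells Zbtb46 was highest at 2.00 CPM in replicate 1, from 1 UMI, with the next at 0.691 CPM.

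In DC1-like cells of untreated MC38 the highest Xcr1 library had 836 CPM from 16 UMIs in 1 barcode, with the next at 439 CPM. In DC1-like cells of irradiated Panc02-SIY the highest Batf3 library had 332 CPM in 3 barcodes, with the next at 289 CPM.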

How the results depend on the processing

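Most results kept their direction and call: among settings other than leaving out a library, 261 counts and shares stayed, 16 moved, 3 passed the threshold and 1 reversed, and 304 stayed, 8 moved and 1 reversed without 1 library. A count near the main one was taken to have stayed even where it changed, and counts of 0 were included. Between irradiated models over CD45+ cells the main count of 4 ran from 3 to 6, and all 14 settings were taken to have stayed. Of single-gene values 479 stayed, 15 lost the call and 2 reversed, and 444 stayed and 20 lost it without 1 library. These values were fold changes of called members and, among the 479, also CPM levels in Panc02-SIY macrophage-like cells. Macrophage-like alternatives, and leaving out subclusters, were chosen after seeing the data. In cDC-like cells the count of members called between untreated models (3) became 0 without subcluster 3 (1.06% of all genes called), 8 with all barcodes kept (19.7%), 6 without the low-count filter (6.61%), and 5 with the stricter cell filter (12.3%), with Leiden resolution 2 (9.70%) or without pDC-like and T cell-led subclusters (9%). Between irradiated models (4) it became 0 without subcluster 3 (0.891%), where Batf3 (0.31) and Flt3 (0.54) reversed, 7 with all barcodes (23.0%) and 7 with no filter (8.67%), and without the filter irradiation gave 3 in MC38 (0.649%) and 4 in Panc02-SIY (2.13%). In macrophage-like cells irradiation gave 1 in MC38 with members clustered (Wdfy4, 14.2%) or scaling by library size alone (Batf3, 15.4%), and 1 in Panc02-SIY (Naaa) with all barcodes (11.2%) or members clustered (8.46%). Over CD45+ cells DESeq2 called 1 (Naaa, 2.10%) for the difference between models. The DC1-like share differed with all barcodes by -0.356 percentage points with irradiation in Panc02-SIY, and by -1.10 and -0.820 between untreated and irradiated models. It reversed to 0.0590 between irradiated models with members clustered, and to 0.0384 between untreated models without MC38 untreated replicate 4. The causes were not tested.

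Leaving out 1 library gave 3 to 6 members called between untreated models and 3 to 5 between irradiated models over CD45+ cells, 0 to 1 for the difference between models (1, Naaa, without Panc02-SIY irradiated replicate 2), 1 to 5 and 2 to 6 in cDC-like cells, and 0 to 1 for irradiation in MC38 macrophage-like cells. The DC1-like share differences ran from -0.413 to -0.173 for MC38 irradiation, -0.298 to -0.122 for Panc02-SIY irradiation, -0.201 to 0.0384 between untreated and -0.296 to -0.0692 between irradiated models. The rise of Naaa in Panc02-SIY ran from 1.03 to 1.38 and was called throughout. Libraries were not treated as pairs, because not every correlation of same-numbered deviations over CD45+ cells was over 0.1: 3 of 4 Panc02-SIY pairs were (0.294, 0.621 and 0.822, each closest to its own number, with the other at -0.188), and 2 of 4 in MC38 (-0.00880 to 0.163). In cDC-like cells 2 of 4 Panc02-SIY pairs (0.181 and 0.412) and 0 of 4 in MC38 were. With the replicate block 1 member was called for irradiation in Panc02-SIY and 5 and 4 between models over CD45+ cells, 3 and 3 in cDC-like cells (Zbtb46 was lost) and 6 and 6 in macrophage-like cells. Beside these counts, and those with 1 library left out, stand the main fit's shares of all genes called. Over CD45+ cells they were 61.1% between untreated and 58.5% between irradiated models. The same shares were 9.29% and 11.5% in cDC-like cells and 48.8% and 51.2% in macrophage-like cells. For irradiation they were 14.7% in Panc02-SIY over CD45+ cells and 14.2% in MC38 macrophage-like cells. Scaling by library size alone shifted the median of all genes by up to -0.37 on the log2 scale (CD45+ cells, irradiated models). Panc02-SIY macrophage-like Xcr1 was 209.6 to 222 CPM over 6 other settings. Few DC1-like barcodes, above all in MC38, limit every DC1-like value.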

Other observations

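Beyond the lists, Fcrl5, an Fc receptor-like gene of B cells chosen here after its values were seen, had the same split as Xcr1 in macrophage-like cells. Its level was 92.9 to 273 CPM in the 8 Panc02-SIY libraries and 0 to 0.129 CPM in the 8 MC38 libraries. Xcr1 was also found in 46 cancer or stromal cell-like barcodes of Panc02-SIY, 93.5% of which held a Cadm1 UMI and 84.8% a C1qa UMI. NK cell-like barcodes with an Xcr1 UMI numbered 29 in Panc02-SIY and 7 in MC38, none with a Clec9a or Flt3 UMI.

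The pDC-like subcluster of 25 barcodes was led by Siglech, Ccr9 and Cox6a2. It carried Clec9a at 154 CPM and no Batf3, Xcr1, Zbtb46 or Gcsam UMI among 272612 UMIs, which allows up to 13.5 CPM of each (exact Poisson limit).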
